A study of Mus musculus with 4 samples.

Results

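The 9 genes described here are commonly used markers of simple and surface epithelium: Cdh1, Epcam, Krt8, Krt18, Krt19, Cldn6, Cldn7, Esrp1 and Trp63. They were taken by symbol from a gene expression table of 55426 rows, in which each symbol occurred once. The libraries were poly(A)-selected RNA of mouse retinal organoids, aggregates of pluripotent cells grown towards retinal progenitors, at day 6. All 4 libraries carried the same background per the labels: one line with the Rx:GFP reporter, a Mettl3 knockout and an inducible HA-METTL3, cultured with AGN at 0.1 µM. They differed by doxycycline (Dox), given at 2 µg/ml for 6 days to 2 libraries and withheld from the other 2. METTL3 is the enzyme that adds N6-methyladenosine to RNA. The labels do not say whether the line is 1 clone, and the titles use an "EV" that is not explained and may name another construct, so the inducible HA-METTL3 rests on the genotype label and the growth protocol. Nothing says that the replicates were separate cultures. All 4 libraries carry the same batch date. The duplicates went through separate rounds of library preparation and sequencing, which the labels do not tie to replicate numbers. The p-values therefore measure the spread between these libraries, which may be technical.

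Epithelial sheets are held together by E-cadherin at adherens junctions and by claudins at tight junctions, and simple epithelia fill their cytoplasm with keratin filaments made of a type II and a type I chain. The early embryonic epiblast already carries E-cadherin, EpCAM and simple keratins. Neural tissue replaces E-cadherin by N-cadherin as the neural plate forms, while the ectoderm at the surface of the head keeps it and later adds p63 and the keratins of stratified skin. The lens, cornea and conjunctiva come from that surface layer, next to the optic vesicle.

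With and without Dox, 8 of the 9 genes were expressed at low to moderate levels, and 0 of these 8 passed the test for a difference. The 3 keratin genes stood highest, between 15.4 and 24.3 FPKM on average over the 4 libraries (fragments per kilobase of transcript, scaled to library depth). The adhesion genes Cdh1, Epcam, Cldn6 and Cldn7 lay between 2.62 and 5.87 FPKM, the splicing regulator Esrp1 near 1.22 FPKM, and the p63 gene Trp63 was at the detection floor. Against this background 1297 of the 13931 tested genes (9.31%) differed with Dox at an adjusted p below 0.05 in limma, with 619 higher (4.44%) and 678 lower (4.87%). At that rate a count of 0 among 8 genes lies near the background. At an unadjusted p below 0.05 in limma the count was 1 of the 8, Cdh1, and 3336 of all 13931 tested genes. The share among the 8 was thus below that among all tested genes.

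The libraries held an estimated depth of 31.7 to 34.9 M fragments each, read from the steps of the low values, and 13813 to 13909 genes reached 1 FPKM in a library. Mettl3 itself was listed at 40.33 and 37.98 FPKM without Dox and at 45.2 and 46.37 FPKM with it (log2 fold change 0.22, limma adjusted p = 0.122). How much of it came from the knocked-out locus and how much from the labelled inducible copy was not analysed here. Rax, the gene behind the Rx:GFP reporter, was at 1.12 and 0.82 FPKM without and at 201.14 and 227.98 FPKM with Dox (limma adjusted p = 2.93e-05).

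Upstream sequences of some of these genes are given first, since Cdh1 and other epithelial genes are textbook targets of the repressors Zeb and Snail, which bind the E-box CACCTG. No window of Cdh1 was available to search, so the matches below say nothing of that gene. Sequences from RefSeq (GRCm38.p6) are reported for 4 of the 9 genes, Krt18, Cldn6, Cldn7 and Epcam, with 5 start sites. The 250 bases before each start were searched on both strands for CACCTG, read as CAGGTG on the other strand. These 4 genes, in 4 of 5 windows, held at least 1 match, and the window at the 5′ start of Cldn7 held none. Of all 32851 windows of this length 17.2% held a match. The 6 letters TATAAA, also searched on both strands, occurred in 0 of the 5 windows and in 12.4% of all windows. These windows are a part of those searched, so no rate is drawn from them. A match is a run of letters and says nothing of binding.

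Of the 5 windows, that of Epcam lay wholly before the annotated gene and held 2 matches, so it is printed whole (chr17:87635729-87635978, plus strand, capitals mark the matches):
Epcam: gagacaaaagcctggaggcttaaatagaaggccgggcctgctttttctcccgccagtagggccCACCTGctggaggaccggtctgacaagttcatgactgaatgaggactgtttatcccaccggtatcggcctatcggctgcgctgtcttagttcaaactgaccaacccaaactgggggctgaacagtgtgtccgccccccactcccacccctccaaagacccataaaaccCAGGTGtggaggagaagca
The other 4 matches are shown with 10 bases on each side, on the strand of the gene. They lie at chr15:102027992-102028017 (Krt18, 214 bases before its start), chr17:23679262-23679287 (Cldn6, 93 bases before), and chr11:69965314-69965339 and chr11:69965354-69965379 (Cldn7, 97 and 57 bases before an internal start). Apart from that of Krt18 they fall within the gene as GENCODE M21 annotates it.
Krt18: gggctaacacCACCTGctatcctttg
Cldn6: gaaacgcacgCAGGTGgctatcgccg
Cldn7 first: tcttcctcttCACCTGgacgaggagg
Cldn7 second: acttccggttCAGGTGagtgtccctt

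Transcripts of factors known to bind this element were present in both groups. Zeb1, a zinc finger repressor of epithelial genes, was at 17.9 ± 0.566 FPKM without and 17.0 ± 0.714 FPKM with Dox (n = 2 each, SD). Its relative Zeb2 was listed at 20.51 and 21.45 FPKM without and at 22.72 and 25.88 FPKM with Dox. Neither passed the threshold (adjusted p = 0.642 and 0.252 in limma). Snai1 and Snai2, the Snail and Slug genes, were at 0.93 and 1.52 FPKM on average without Dox and at 1.31 and 2.45 FPKM with it, with adjusted p = 0.306 and 0.0966 in limma. Zeb2, Snai1 and Snai2 lay higher in both Dox libraries than in both untreated ones, without passing the threshold, and Zeb1 did not. Such absence of overlap, in either direction, held for 53.4% of all tested genes.

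**Figure D1:**
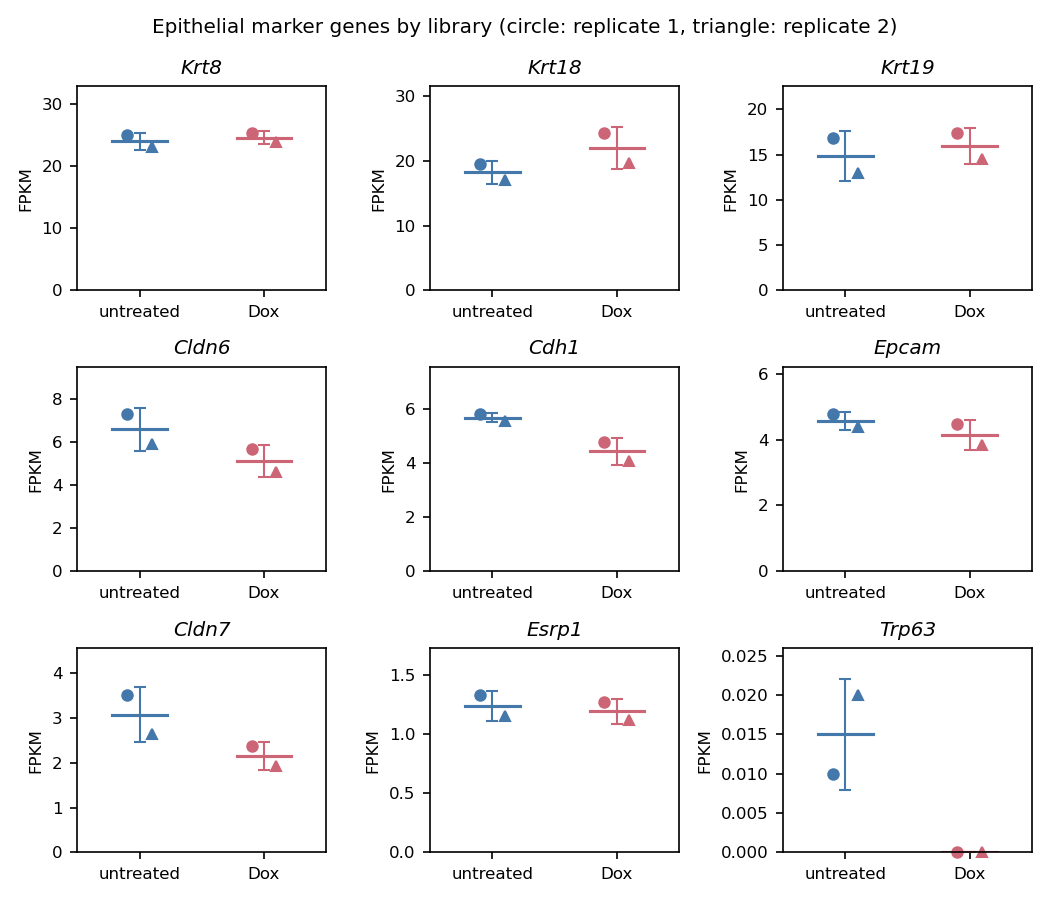
FPKM of each of the 9 genes (vertical axis from 0, a scale per gene) in the 2 untreated and 2 Dox libraries; points are libraries, bars the mean and the error bars 1 SD (n = 2). Replicate 1 lies above replicate 2 in both groups for all genes but Trp63. Of the tested genes, the Dox libraries of Cdh1, Cldn6 and Cldn7 lie below both untreated libraries and those of Krt18 above both. Such absence of overlap held for 53.4% of all tested genes.

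The adherens junction gene Cdh1 (ENSMUSG00000000303, chr8:106603351-106670246) encodes E-cadherin, the classical cadherin of epithelia. It was listed at 5.82 and 5.57 FPKM in untreated replicates 1 and 2 and at 4.79 and 4.1 FPKM in Dox replicates 1 and 2. Both Dox libraries lay below both untreated libraries. The group means were 5.70 ± 0.177 and 4.45 ± 0.488 FPKM (n = 2 each, SD). On the log2(FPKM + 1) scale used throughout, the log2 fold change was -0.30 (SE 0.113, 95% interval -0.58 to -0.018). The unadjusted p was 0.0406 and the adjusted p 0.186 in limma, so the difference did not pass the threshold. An exact two-sided permutation test gave p = 0.333, the smallest that 2 against 2 libraries allow.

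In each library Cdh1 stood far below the N-cadherin gene Cdh2, the classical cadherin of neural tissue. The ratio of Cdh1 to Cdh2 was 4.37% and 4.64% in the untreated libraries and 5.28% and 4.06% in the Dox libraries. These ratios overlapped between the groups, and both Dox values lay outside the untreated pair, one above and one below it. Cdh2 itself went from 126.6 ± 9.20 to 95.9 ± 7.30 FPKM (n = 2 each, SD; log2 fold change -0.40, limma adjusted p = 0.0529), just short of the threshold.

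Epcam (ENSMUSG00000045394, chr17:87635979-87651129) encodes a membrane protein of epithelial and pluripotent cells that associates with claudins. Its values were 4.77 and 4.38 FPKM without Dox and 4.46 and 3.82 FPKM with Dox. The groups overlapped, since Dox replicate 1 lay above untreated replicate 2. The log2 fold change was -0.12 (95% interval -0.41 to 0.18, limma adjusted p = 0.602).

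The claudins seal the tight junction. Cldn6 (ENSMUSG00000023906, chr17:23679249-23682446), a claudin of embryonic epithelia and pluripotent cells, was listed at 7.3 and 5.9 FPKM without Dox and at 5.67 and 4.62 FPKM with it. Both Dox libraries lay below both untreated ones, but the gap between the groups was smaller than the difference between replicates. The log2 fold change was -0.31 (SE 0.144, 95% interval -0.67 to 0.055, limma adjusted p = 0.277).

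Cldn7 (ENSMUSG00000018569, chr11:69964779-69967885), a claudin of mature simple epithelia, had the largest log2 fold change of the 8 tested genes with all 4 libraries. It was listed at 3.51 and 2.64 FPKM without Dox and at 2.38 and 1.93 FPKM with it, again with both Dox libraries lower. The log2 fold change was -0.36 (SE 0.158, 95% interval -0.76 to 0.032, limma adjusted p = 0.241), which on the scale of FPKM + 1 spans 0.590-fold to 1.02-fold. That rank depends on the setting: without Dox replicate 2 Krt18 (0.39) exceeded Cldn7 (-0.26) in size, without untreated replicate 1 Krt18 (0.34), Krt19 (0.28) and Cdh1 (-0.27) exceeded it (-0.21), and with a pseudocount of 5 Krt18 (0.21), Cldn6 (-0.19) and Cdh1 (-0.18) exceeded it (-0.17). This gene had the thinnest support of the 8 by fragments after the fit of depth, about 69 in Dox replicate 2. The ratio of Cldn7 to Cldn6 was 0.481 and 0.447 in the untreated libraries and 0.420 and 0.418 in the Dox libraries.

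Keratins 8 and 18 pair into the filaments of simple epithelia, and their genes neighbour each other on chromosome 15. Krt8 (ENSMUSG00000049382, chr15:101996698-102004482), the type II chain, was listed at 24.99 and 23.03 FPKM without Dox and at 25.31 and 23.91 FPKM with it. The groups overlapped, with untreated replicate 1 between the Dox libraries, and the log2 fold change of 0.035 had the narrowest interval of the 8 genes, -0.16 to 0.23 (limma adjusted p = 0.838). On the scale of FPKM + 1 this spans 0.893-fold to 1.17-fold.

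Krt18 (ENSMUSG00000023043, chr15:102028180-102032027), its type I partner, was listed at 19.55 and 17.05 FPKM without Dox and at 24.32 and 19.73 FPKM with it. Both Dox libraries lay above both untreated ones, with Dox replicate 2 just above untreated replicate 1. The log2 fold change was 0.25 (SE 0.125, 95% interval -0.062 to 0.56, limma adjusted p = 0.303). Krt18 was the one gene of the set that was higher with Dox without overlap between the groups.

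Since the chains assemble in pairs, the ratio of the transcripts was also taken within each library. Krt8 to Krt18 was 1.28 and 1.35 without Dox and 1.04 and 1.21 with Dox. The type II transcript exceeded the type I transcript in all 4 libraries, and by less in both Dox libraries, a description that was not tested.

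Krt19 (ENSMUSG00000020911, chr11:100140810-100148665) is a type I keratin that marks ducts, simple epithelia and embryonic surface layers. It was listed at 16.83 and 12.94 FPKM without Dox and at 17.36 and 14.54 FPKM with it. Its replicates differed more than its groups, and the log2 fold change of 0.100 (95% interval -0.27 to 0.47, limma adjusted p = 0.742) did not pass. Per Krt18 transcript it stood at 0.861 and 0.759 without Dox and at 0.714 and 0.737 with Dox.

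Esrp1 (ENSMUSG00000040728, chr4:11331933-11386783) encodes an RNA-binding protein that directs the epithelial splice forms of many transcripts, among them Fgfr2. It was listed at 1.33 and 1.15 FPKM without Dox and at 1.27 and 1.12 FPKM with it. The groups overlapped, with a log2 fold change of -0.029 (95% interval -0.37 to 0.31, limma adjusted p = 0.921). Its mean exceeded that of only 3.09% of the tested genes, against 64.7% for Krt8. Exons of Esrp1 overlap a predicted antisense gene, which leaves its value uncertain where reads were counted without strand. Exons of Krt8 overlap another such gene, Gm36026, which did not exceed 0.02 FPKM.

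Trp63 (ENSMUSG00000022510, chr16:25683763-25892102) encodes p63, the transcription factor that commits surface ectoderm to stratified epithelium. It was listed at 0.01 and 0.02 FPKM without Dox and at 0 in both Dox libraries. The largest of these values corresponds to about 3 fragments, and 3 fragments on its principal transcript would be at most 0.0212 FPKM. All 4 libraries were at or under that floor, so no fold is given and the gene was not tested.

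The order of the levels was Krt8, Krt18, Krt19, Cldn6, Cdh1, Epcam, Cldn7, Esrp1 and Trp63, and it held within each of the 4 libraries. Across libraries the ranges of some neighbours overlapped: Krt18 reached 24.32 FPKM where Krt8 started at 23.03, and Cldn6 (4.62 to 7.3 FPKM), Cdh1 (4.1 to 5.82 FPKM) and Epcam (3.82 to 4.77 FPKM) ran into each other. Wide steps separated Krt19, which did not go below 12.94 FPKM, from Cldn6, and Cldn7, not below 1.93 FPKM, from Esrp1.

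**Figure D2:**
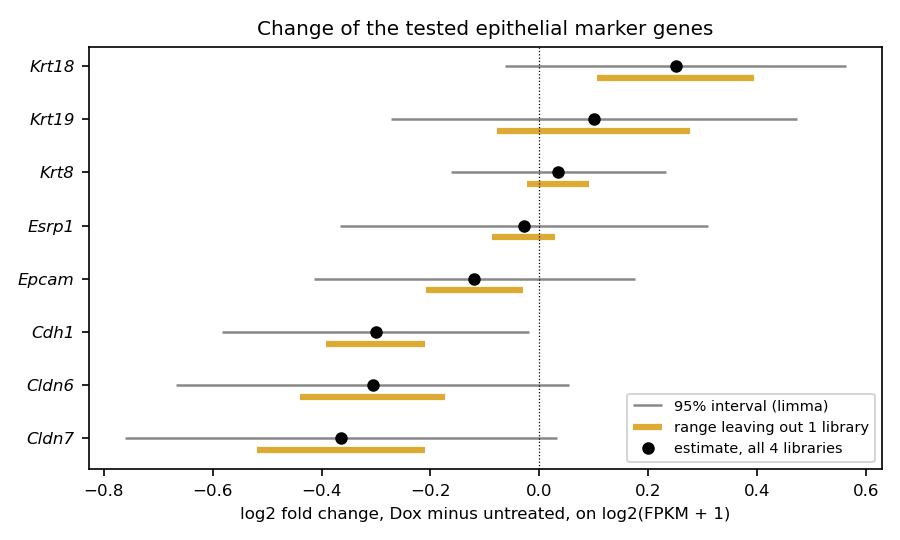
Log2 fold change, Dox minus untreated (horizontal axis), of the 8 tested genes, with the 95% interval from limma in grey and the range of estimates when 1 library is left out in yellow. The keratins lie at or above 0 and the adhesion genes below it, and the interval of Cdh1 is the one that does not include 0 before adjustment.

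Set side by side, the 3 keratin genes had positive and the 5 other tested genes negative fold changes, and none passed the threshold. For 4 of the 8 there was no overlap between untreated and Dox libraries, with Cdh1, Cldn6 and Cldn7 lower and Krt18 higher, while this held for 53.4% of all tested genes. The median log2 fold change of the 8 was -0.074, and their median absolute change 0.18. Over all tested genes these were -0.0042 and 0.13. In bulk RNA such values cannot tell fewer epithelial cells from less RNA per cell.

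A difference between replicates ran through the set. Replicate 1 was above replicate 2 in both groups for 8 of the 8 tested genes, a pattern noticed after the values were seen and shared by 16.9% of all tested genes. For Krt19 it amounted to 0.36 between the untreated and 0.24 between the Dox libraries on the log2 scale, more than its difference between the groups. Within replicate numbers 1 and 2, the log2 difference of Dox minus untreated was -0.24 and -0.37 for Cdh1, -0.32 and -0.30 for Cldn6 and -0.42 and -0.31 for Cldn7. For Krt18 it was 0.30 and 0.20. The same replicate pattern was seen in 6 of 19 junction partners, 4 of 6 epithelial regulators and 2 of 10 pluripotency markers. What sets replicate 1 above replicate 2 was not tested.

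The label "surface epithelium" was checked against markers of that layer. Krt14, the basal keratin of stratified epithelium, was listed at 0 in all 4 libraries, and its partner Krt5 at 0 in 3 and at 0.02 FPKM in Dox replicate 1. Of 16 other keratin genes, 15 stayed under 1 FPKM in every library, 13 of them under 0.1 FPKM, and 4 were listed at 0 throughout. The exception was Krt10, listed at 4.98 and 4.17 FPKM without and 3.45 and 2.85 FPKM with Dox (log2 fold change -0.43, limma adjusted p = 0.134). Trp63, Krt5 and Krt14, genes of the basal layer of stratified epithelium, were thus at or near 0. Krt10, a keratin of its upper layers, goes the other way, at levels near those of Cdh1 and Epcam, and the desmosome genes Perp and Dsp were also present. The simple epithelial genes are therefore described by their names here, without naming a cell layer.

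**Figure D3:**
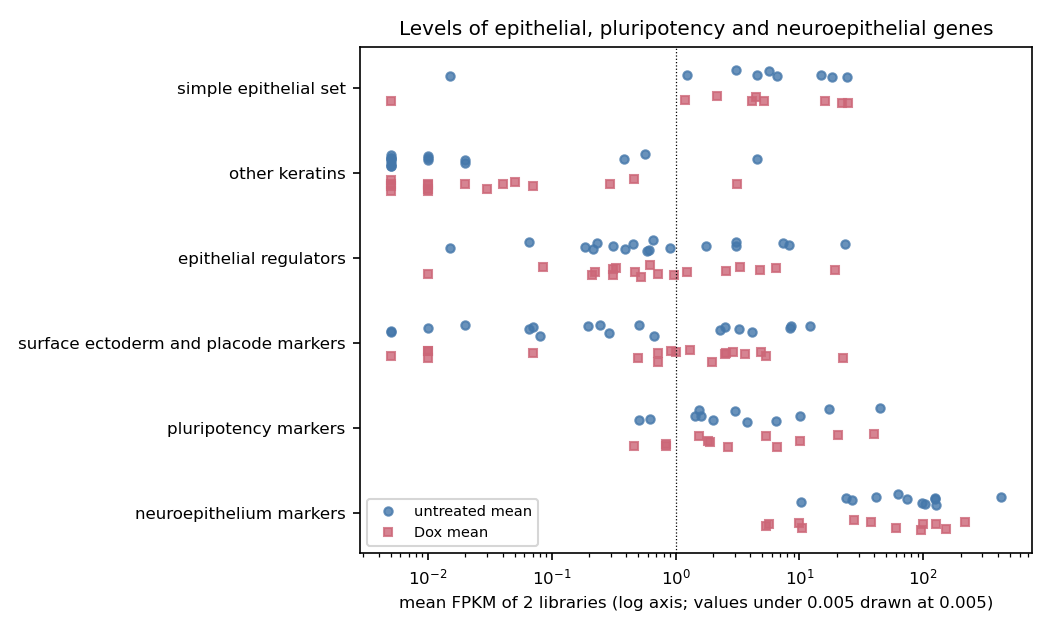
Mean FPKM of the 2 untreated (circles) and the 2 Dox libraries (squares) for each gene of 6 lists, on a log axis, with values under 0.005 drawn at 0.005 and a dotted line at 1 FPKM. The simple epithelial set overlaps the range of the pluripotency markers and lies below most of the neuroepithelial genes, and nearly all other keratins are under 1 FPKM.

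Surface ectoderm and placode markers went both ways. Of 19 genes 9 were tested, with 2 higher and 3 lower past the threshold (55.6%, against 9.31% of all tested genes). The AP-2 genes Tfap2b and Tfap2c, regulators of ectoderm and neural crest, fell from 8.40 ± 0.622 to 0.72 ± 0.184 FPKM and from 12.1 ± 0.0354 to 2.90 ± 0.403 FPKM (n = 2 each, SD; limma adjusted p = 4.15e-04 and 7.21e-04). The homeobox gene Msx2 rose from 4.14 ± 0.0919 to 22.6 ± 1.38 FPKM (adjusted p = 1.65e-04). The summed level of the list was 42.8 to 43.8 FPKM without and 48.9 to 54.7 FPKM with Dox. Msx2 rose by more than this sum did, so the other genes of the list together were lower with Dox. Tfap2a, at the head of the surface ectoderm programme, had a log2 fold change of 0.14 and did not pass (adjusted p = 0.490).

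Lens markers were partly higher with Dox. Of 13 genes 5 were tested, with 3 higher and 0 lower past the threshold (60%, against 9.31% of all tested genes). Maf rose from 3.28 ± 0.0919 to 22.7 ± 3.54 FPKM (n = 2 each, SD; limma adjusted p = 3.41e-04), Prox1 had a log2 fold change of 0.83 (adjusted p = 0.0122) and Mip one of 0.79 (adjusted p = 0.0268). Maf and Prox1 are transcription factor genes with roles outside the lens, the latter in retinal progenitors. The other tested lens genes, the chaperone crystallin gene Cryab and the forkhead gene Foxe3, did not pass. Cryab was listed at 10.27 and 8.34 FPKM without and at 7.88 and 5.92 FPKM with Dox (limma adjusted p = 0.223), and Foxe3 at 7.83 and 7.94 FPKM without and at 7.47 and 6.13 FPKM with Dox (limma adjusted p = 0.387). The other crystallin genes of the list were low: Cryaa, Crygs and Cryba1 did not exceed 0.16 FPKM and Crybb3 did not exceed 0.86 FPKM in any library. Exons of Maf, Prox1 and Mip overlap those of another gene. The calls of Prox1 and Mip were lost without a filter on low values (limma adjusted p = 0.0770 and 0.103) and without any one library (0.0582 to 0.0856 and 0.0753 to 0.115).

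Markers of other cell types that carry simple epithelial genes were read in the same libraries. Pluripotent cells express Cdh1, Epcam and Cldn6, and the 12 pluripotency markers summed to 93.0 and 93.7 FPKM without Dox and to 103.8 and 81.1 FPKM in Dox replicates 1 and 2. Of the 10 tested, 0 were higher and 1 lower, Klf4, with a log2 fold change of -0.71 (limma adjusted p = 0.0348), which was lost without any one library (0.0880 to 0.127) and without a filter on low values (0.101). The share called, 10%, lies near the 9.31% of all tested genes. The most abundant pluripotency marker, Dppa5a, was at 45.1 ± 3.27 and 39.8 ± 10.9 FPKM (n = 2 each, SD). The summed list was higher in Dox replicate 1 than in Dox replicate 2, but not higher in untreated replicate 1 than in untreated replicate 2. The untreated order rested on Dppa5a, listed at 42.74 and 47.37 FPKM in untreated replicates 1 and 2. Without Dppa5a the rest of the list summed higher in replicate 1 in both groups. The tested epithelial genes were higher in replicate 1 in both groups. The part of pluripotent cells in the values of the epithelial genes was not tested.

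Endoderm and trophectoderm, the other early epithelia, were represented at low levels. Of 14 endoderm markers 13 stayed under 1 FPKM in every library. The exception was the endocytic adaptor gene Dab2, near 8.62 FPKM without and 8.38 FPKM with Dox. Of 10 trophectoderm markers 8 stayed under 1 FPKM, and the single tested gene was Tfap2c, given above. The summed trophectoderm list was 14.5 to 15.5 FPKM without and 7.38 to 7.62 FPKM with Dox, and most of it was Tfap2c. Without Tfap2c the other 9 genes summed to 3.37 and 2.34 FPKM without and to 4.77 and 4.44 FPKM with Dox, the other way round.

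The neuroepithelial markers as a list stood above the epithelial set, though Notch1 in all libraries and Hes5, Sox1 and Fabp7 with Dox lay below the 3 keratin genes. All 12 were tested, with 6 lower and 1 higher past the threshold (58.3%, against 9.31% of all tested genes). Their summed level was 1220 to 1264 FPKM without and 817 to 881 FPKM with Dox. The largest falls were those of Fabp7, a lipid-binding protein of radial glia (log2 fold change -3.49), Sox1 (-2.12) and the Notch target Hes5 (-1.18), with adjusted p up to 0.00252 in limma. The 1 called higher was Sox2, at 109.56 and 97.34 FPKM without and 139.25 and 163.64 FPKM with Dox (limma adjusted p = 0.0347). Pax6 and Notch1 had log2 fold changes of 0.040 and 0.027 and did not pass (limma adjusted p = 0.796 and 0.942). Among 15 tested mesenchymal and EMT genes 3 were higher and 1 lower (26.7%, against 9.31% of all tested genes). Cdh11, a cadherin of mesenchyme and of the optic vesicle, rose from 22.79 and 23.13 FPKM to 184.41 and 211.3 FPKM (limma adjusted p = 6.96e-05), and the collagen gene Col1a2 had a log2 fold change of 2.04 (limma adjusted p = 5.54e-04). Vim, the intermediate filament gene of neuroepithelium and mesenchyme and a member of both lists, fell from 423.4 and 432.37 FPKM to 217.22 and 219.42 FPKM (limma adjusted p = 9.36e-04). The keratin genes did not pass the test, and the difference between them and Vim was not tested.

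The junction partners of the set were read next. Of 29 listed genes 28 were in the table and 19 were tested, with 1 higher and 1 lower past the threshold and a median log2 fold change of -0.083. Those 2 of 19 (10.5%) lie near the 9.31% of all tested genes. Nectin2, an immunoglobulin-like adhesion molecule of adherens junctions, was listed at 49.09 and 48.62 FPKM without Dox and at 76.67 and 80.02 FPKM with it (log2 fold change 0.67, SE 0.0634, limma adjusted p = 0.00273). Cldn3, a sealing claudin of simple epithelia, was listed at 3.04 and 2.62 FPKM without and 1.08 and 1.14 FPKM with Dox (log2 fold change -0.86, SE 0.129, adjusted p = 0.0144). Cldn3 is the one claudin of the list that passed, in the direction that Cldn6 and Cldn7 showed without passing. Exons of both genes overlap another gene on the opposite strand, and those of Ctnnb1, Krt10, Zeb1, Zeb2, Hes5 and Sox1 also overlap another gene. The same holds for Tfap2a, Notch1, Elf3, Grhl2, Ovol2, Dsp, Dab2, Cryab, Cryaa, Krt5, Gata3 and Dlx6. The most abundant partner, the β-catenin gene Ctnnb1, was listed at 462.96 and 445.92 FPKM without and at 455.54 and 431.98 FPKM with Dox (limma adjusted p = 0.833).

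Desmosome and hemidesmosome genes had 8 tested of 19, with 2 lower and 0 higher (25%, against 9.31% of all tested genes). Perp, a desmosomal membrane protein gene and a p53 and p63 target, was listed at 3.65 and 3.52 FPKM without Dox and at 1.74 and 1.31 FPKM with it (log2 fold change -0.87, SE 0.136, limma adjusted p = 0.0169). Itga6, the laminin receptor chain shared by hemidesmosomes and neural progenitors, was listed at 40.72 and 39.25 FPKM without and 25.87 and 28.27 FPKM with Dox (log2 fold change -0.55, SE 0.0757, adjusted p = 0.0109). The median of the 8 was -0.024.

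Among 18 epithelial regulators 6 were tested, with 1 lower and 0 higher and a median of -0.22. The share called was 16.7%, resting on 1 gene, against 9.31% of all tested genes. Myo5b, a motor for apical recycling, was listed at 8.46 and 8.02 FPKM without Dox and at 4.47 and 5.05 FPKM with it (log2 fold change -0.68, SE 0.104, limma adjusted p = 0.0152). Spint2, a protease inhibitor that protects EpCAM and claudins from matriptase, was the most abundant and had a log2 fold change of -0.24 (adjusted p = 0.202). Levels of the transcription factors of the list were uneven. Grhl2 averaged 0.39 FPKM without and 0.21 FPKM with Dox and Ovol2 0.185 and 0.225 FPKM, while the ETS factor Elf3 averaged 3.06 and 2.55 FPKM (limma adjusted p = 0.519). Grhl1 and Grhl3 lay the other way from Grhl2, at 0.215 and 0.23 FPKM without and 0.31 and 0.33 FPKM with Dox. The Grhl genes and Ovol2 were under the filter and not tested. The calls of Cldn3, Perp, Itga6 and Myo5b did not hold without a filter on low values (limma adjusted p = 0.0551 to 0.0968). Myo5b lost its call without any one of the 4 libraries (limma adjusted p = 0.0636 to 0.114). Cldn3 lost it without untreated replicate 1 or either Dox replicate (0.0708 to 0.0820), Perp without either untreated replicate or Dox replicate 2 (0.0803 to 0.0874), and Itga6 without either untreated replicate or Dox replicate 1 (0.0682 to 0.0945). The call of Nectin2 held in every setting.

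**Figure D4:**
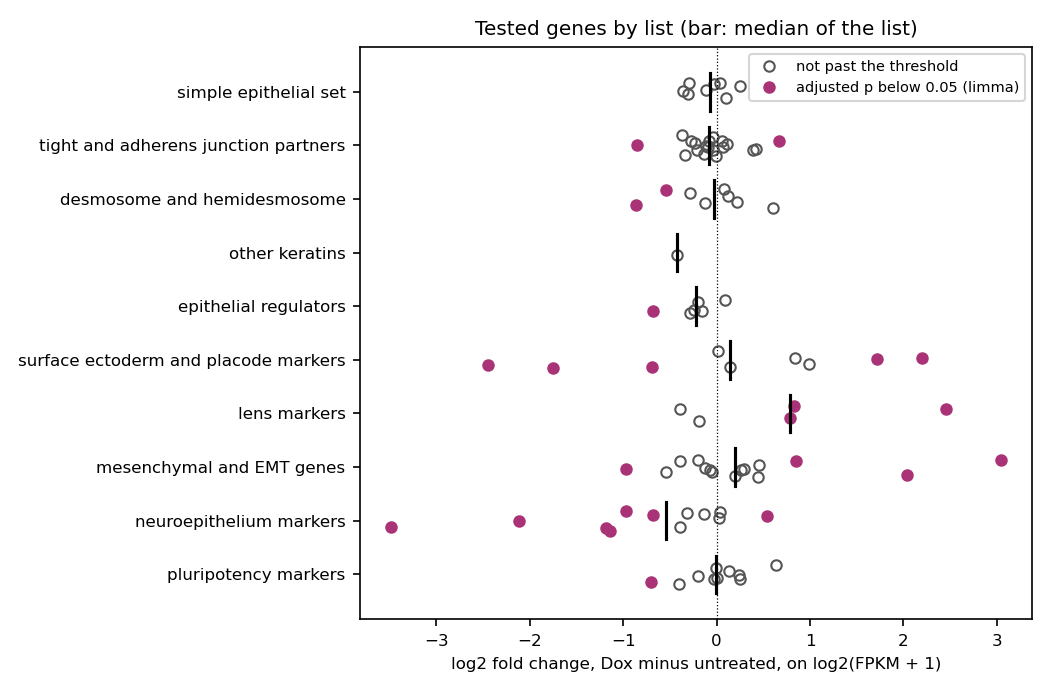
Log2 fold change, Dox minus untreated (horizontal axis), of the tested genes of each list, one point a gene, filled where the adjusted p was below 0.05 in limma, with a bar at the median of the list. The 8 genes of the simple epithelial set lie between -0.36 and 0.25, while several neuroepithelial, placode, lens and mesenchymal genes reach beyond 2 in size.

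The genes whose values ran most like those of Cldn7, the gene of the set with the largest fold change over all 4 libraries, were sought among 11354 named tested genes by the distance between log2 values centred on each gene's mean over the 4 libraries. The nearest were Tnfrsf12a (distance 0.046), Endod1 (0.052), Limch1 (0.075), Ripk4 (0.078) and Pdlim7 (0.082). Their log2 fold changes ran from -0.40 for Endod1 to -0.33 for Tnfrsf12a, and none passed the threshold, the smallest adjusted p being 0.113 for Pdlim7 in limma. Likeness over 4 libraries is a description of these values only.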

How the data were processed

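Per the labels' protocols, poly(A)-selected libraries were sequenced as read pairs on a NovaSeq, the duplicates in separate rounds. Expression was deposited by the authors as FPKM, one column per library. The submitters' processing notes name STAR, Cuffdiff and build mm10, with no role or version; strand setting and annotation release are not given in the sources used here. Values were transformed to log2(FPKM + 1), and limma 3.58.1 (R 4.3.3) was run on the 13931 genes averaging 1 FPKM or more (intensity trend, no covariate, two-sided, Benjamini-Hochberg over all tested genes, threshold 0.05). This scale understates changes of low genes. Groups came from the treatment label.

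Depth was fitted from single-transcript genes of 450 to 1200 nt under 0.5 FPKM (Python 3.11.15); 77.2% to 79.6% of these values came within 0.1 of a whole fragment. Fragment numbers of genes are estimates on the principal GENCODE M21 (GRCm38) transcript, and floors and counting errors cover counting only. The upstream window of 1 further gene is not reported here. On simulated data with 200 of 13931 genes changed, limma recovered 44.3% of log2 changes of 0.5 and 96.6% of those of 1. The data themselves held 1297 calls. No change under 0.5 and no difference shared between replicates was simulated, so these rates do not give the sensitivity for the 8 tested genes.

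Genes, lists and tests were chosen with earlier results of these data known. Named are all 9 genes, up to 3 called genes per list with the largest change and no overlap between groups, the most abundant gene per list, and 5 nearest patterns. Others (Zeb1, Zeb2, Snai1, Snai2, Cdh2, Tfap2a, Grhl1, Grhl2, Grhl3, Ovol2, Krt5, Krt14, Elf3, Dsp, Notch1, Sox2, Pax6, Foxe3 and the crystallin genes) were named after their values were seen. Alternatives were 2 pseudocounts, 2 filters, TPM, median and quantile scaling, 2 variance settings, the replicate block and leaving out each library.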

Additional observations from a re-analysis of the deposited data

How the results depend on the processing

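In all 14 alternative settings 0 of the tested epithelial genes were called, and the smallest adjusted p of any was 0.151, for Cdh1 without the intensity trend in limma. With a minimum mean of 5 FPKM, Epcam, Cldn7 and Esrp1 were no longer tested. Leaving out each library in turn, which leaves 1 library in a group and assumes that it varies like the rest, gave log2 fold changes of -0.022 to 0.091 for Krt8, -0.078 to 0.28 for Krt19 and -0.087 to 0.029 for Esrp1. These 3 changed sign: Krt8 and Krt19 without untreated replicate 2 (-0.022 and -0.078) and without Dox replicate 1 (-0.0047 and -0.021), and Esrp1 without untreated replicate 1 (0.029) and without Dox replicate 2 (0.020). Cdh1, Epcam, Cldn6, Cldn7 and Krt18 kept their sign in every setting that tested them. Their sizes moved with a library left out, to -0.39 to -0.21 for Cdh1, -0.21 to -0.029 for Epcam, -0.44 to -0.17 for Cldn6, -0.52 to -0.21 for Cldn7 and 0.11 to 0.39 for Krt18.

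Over all genes, 336 were called higher and 409 lower without a filter, and 408 and 413 with a minimum of 5 FPKM, where fewer genes are tested. Leaving out a library gave 262 to 320 higher and 331 to 377 lower. Genes of the 4 epithelial lists called lower numbered 1 without a filter, 2 with a minimum of 5 FPKM and 0 to 1 with a library left out, against 4. Ctnnb1, not called, changed sign with quantile normalization (0.023) and without Dox replicate 2 (0.0037), as did Dppa5a without Dox replicate 2 (0.076). Their ranges with a library left out were -0.073 to 0.0037 and -0.478 to 0.076. The causes were not tested.

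A replicate block on the number gave 532 calls higher and 602 lower over all genes, and 0 among the epithelial genes (Cdh1 adjusted p = 0.297 in limma). Whether the numbers mark paired libraries is not given, and the deviations of same-numbered libraries had r = -0.043 across tested genes.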

Other observations

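Some genes of the epithelial and surface ectoderm lists averaged below the filter of 1 FPKM and differed between the groups without overlap. They are given as values with no test, and were picked after these were seen. Lamb3, a laminin-332 chain of epithelial basement membrane, was listed at 1.26 and 1.57 FPKM without Dox against 0.17 and 0.07 FPKM with it. Cldn9, a claudin gene beside Cldn6, was at 0.72 and 0.57 FPKM without Dox and at 0.1 FPKM in both Dox libraries. Wnt6, a Wnt ligand of surface ectoderm, was at 0.55 and 0.46 FPKM without and at 0 and 0.02 FPKM with Dox. Cldn1, a claudin of the skin barrier, and Gata3, a transcription factor of surface ectoderm and trophectoderm, lay the other way, at 0.04 and 0.05 against 0.22 and 0.29 FPKM and at 0.21 and 0.18 against 0.86 and 0.97 FPKM. Of the surface ectoderm list, Wnt6 was the only such gene that was lower with Dox. Besides Gata3, the genes Dlx3, Dlx5, Dlx6, Gata2 and Krt17 were higher. Dlx5 was at 0.09 and 0.05 against 1.06 and 0.95 FPKM, and Gata2 at 0.3 and 0.19 against 1.16 and 1.45 FPKM. Among tested genes, which average 1 FPKM or more, absence of overlap held for 53.4%. The share among genes below that filter, such as these, was not taken.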
